A study of Rattus norvegicus with 82 samples.

Results

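The genes described here encode the collagens, laminins and other proteins of the extracellular matrix, read in the hearts of rats given compounds that bind tubulin. They were chosen by symbol from the probe annotation of the array: every collagen chain gene, every laminin chain gene, and Fn1, Postn, Sparc, Tinagl1, Nid1, Nid2, Hspg2, Fbn1, Eln, Dcn, Lum, Bgn, Adamts1 and Timp1. The rule gave 65 of the 14217 genes that the array names with a single symbol, and each gene was read from its brightest probe set, by the mean of the 82 arrays. Of the 65 genes, 52 were bright enough to be tested, among 11319 genes tested in all. Male Wistar (Crl:Wi(Han)) rats received a single intravenous dose in saline of vinblastine (0.5 or 3 mg/kg), vincristine (0.1 or 1 mg/kg) or colchicine (0.2 or 2 mg/kg), and control rats received saline alone. The heart was studied 6 or 24 h later, with 1 biotin-labelled array per sample, which gave 14 groups. Of these, 12 groups held 6 animals and the 2 vincristine 0.1 mg/kg groups held 5. The labels give no age and no block, litter or day.

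The extracellular matrix of the heart is made largely by fibroblasts, and it carries force between muscle cells and around vessels. Fibrillar collagens, mostly types I and III, form the fibres of the interstitium, on which type V collagen, fibril-associated collagens and small leucine-rich proteoglycans sit and set fibre thickness. Each muscle cell and capillary is wrapped in a basement membrane, a sheet of laminin trimers and type IV collagen tied together by nidogens and perlecan and read by integrins on the cell. Proteases such as the ADAMTS enzymes and matrix metalloproteinases remodel these networks, and TIMP proteins inhibit the proteases. Vinblastine, vincristine and colchicine bind tubulin, the subunit of microtubules, and stop microtubules from growing.

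Values are intensities on a linear scale, one per probe set and animal, and their number per group limits the precision. Array medians lay between 57.6 and 63.3. Changes are differences in log2(intensity + 16) with standard errors (SE) from a limma fit over all 82 arrays, adjusted over 11319 genes, and a gene passed the test where the adjusted p was under 0.05. The 9 listed cardiomyocyte markers were all above the filter on every array, and their summed intensity lay between 144997 and 180461 in colchicine 2 mg/kg hearts at 24 h, against 156628 to 185712 in saline hearts. On 10 arrays the whole profile lay nearer to another group than to its own, with a distance ratio over 1.3. Of these, 2 came from vinblastine 0.5 mg/kg (replicate 6 at 6 h and replicate 5 at 24 h) and 1 from vinblastine 3 mg/kg (replicate 1 at 6 h). Vincristine 0.1 mg/kg gave replicate 5 at 24 h, and vincristine 1 mg/kg gave replicate 3 at 6 h. In the colchicine groups, the lower dose gave replicates 1 and 6 at 6 h and replicate 6 at 24 h, and the higher dose gave replicate 4 at 6 h and replicate 1 at 24 h. All 82 arrays were kept under their labels, and the counts of matrix genes past the test are also given without the 10. Leaving out the 10 also changed how many of all genes passed, so those counts do not belong beside shares from all arrays. The SE rests on a spread pooled over the 14 groups, so it can differ even where neither group lost an array.

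The matrix genes moved most in the colchicine 2 mg/kg hearts at 24 h, where 34 of the 52 tested genes passed the test. Of these, 10 rose (19.2%) and 24 fell (46.2%), while among all genes tested 19.3% rose and 25.3% fell. The share that rose therefore lay near the background and the share that fell above it, a difference for which no test was made. The median log2 change of the 52 genes was -0.12, against 0.000186 over all genes tested. The count was 37 when the 10 arrays were left out, with 11 rises and 26 falls.

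After vincristine 1 mg/kg at 24 h, 9 genes rose and 9 fell (17.3% each), among a background of 12% rises and 18.4% falls, and without the 10 arrays the count was 19 in place of 18. After vinblastine 3 mg/kg at 24 h, 3 genes rose and 1 fell (5.77% and 1.92%), with 5.29% and 4.28% of all genes. That count was 9 without the 10 arrays, none of which lies in either group, and 2 without vinblastine replicate 1. At 6 h the same vinblastine dose gave 10 rises (19.2%) and 1 fall (1.92%), against 15.7% rises and 7.67% falls among all genes, and the count of 11 dropped to 5 without the 10 arrays and to 4 without replicate 1 alone. Vincristine 1 mg/kg at 6 h gave 2 rises and 0 falls (2.05% and 1.25% of all genes), and colchicine 2 mg/kg at 6 h also gave 2 rises and 0 falls (4.89% and 4.37% of all genes). In limma, 9 of the 52 genes (17.3%) had an unadjusted p under 0.05 in each of these last comparisons, in either direction, against 18.6% of all genes after vincristine and 21.8% after colchicine. Leaving out the 10 arrays gave 5 genes (4 rises and 1 fall) and 9 genes (4 rises and 5 falls) past the test. In that setting all genes past the test went from 3437 to 3947 after vincristine and from 1084 to 1784 after vinblastine at 24 h. At 6 h they went from 2642 to 1789 after vinblastine, from 374 to 1395 after vincristine and from 1049 to 2189 after colchicine. The vincristine count of 2 was 0 without replicate 4 or replicate 5 of that group and 1 without replicate 6, and the colchicine count of 2 was 5 without replicate 4. Each time point has 1 set of saline hearts, which all 3 compounds share.

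Over the 12 comparisons with saline, 36 of the 52 genes (69.2%) passed at least once, against 57.1% of all genes tested. Passing in both directions was seen for 0 of the 52 in limma and for 0.875% of all genes. Tissue RNA was measured in bulk, so fewer cells of a type and less RNA per cell cannot be told apart.

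**Figure D1:**
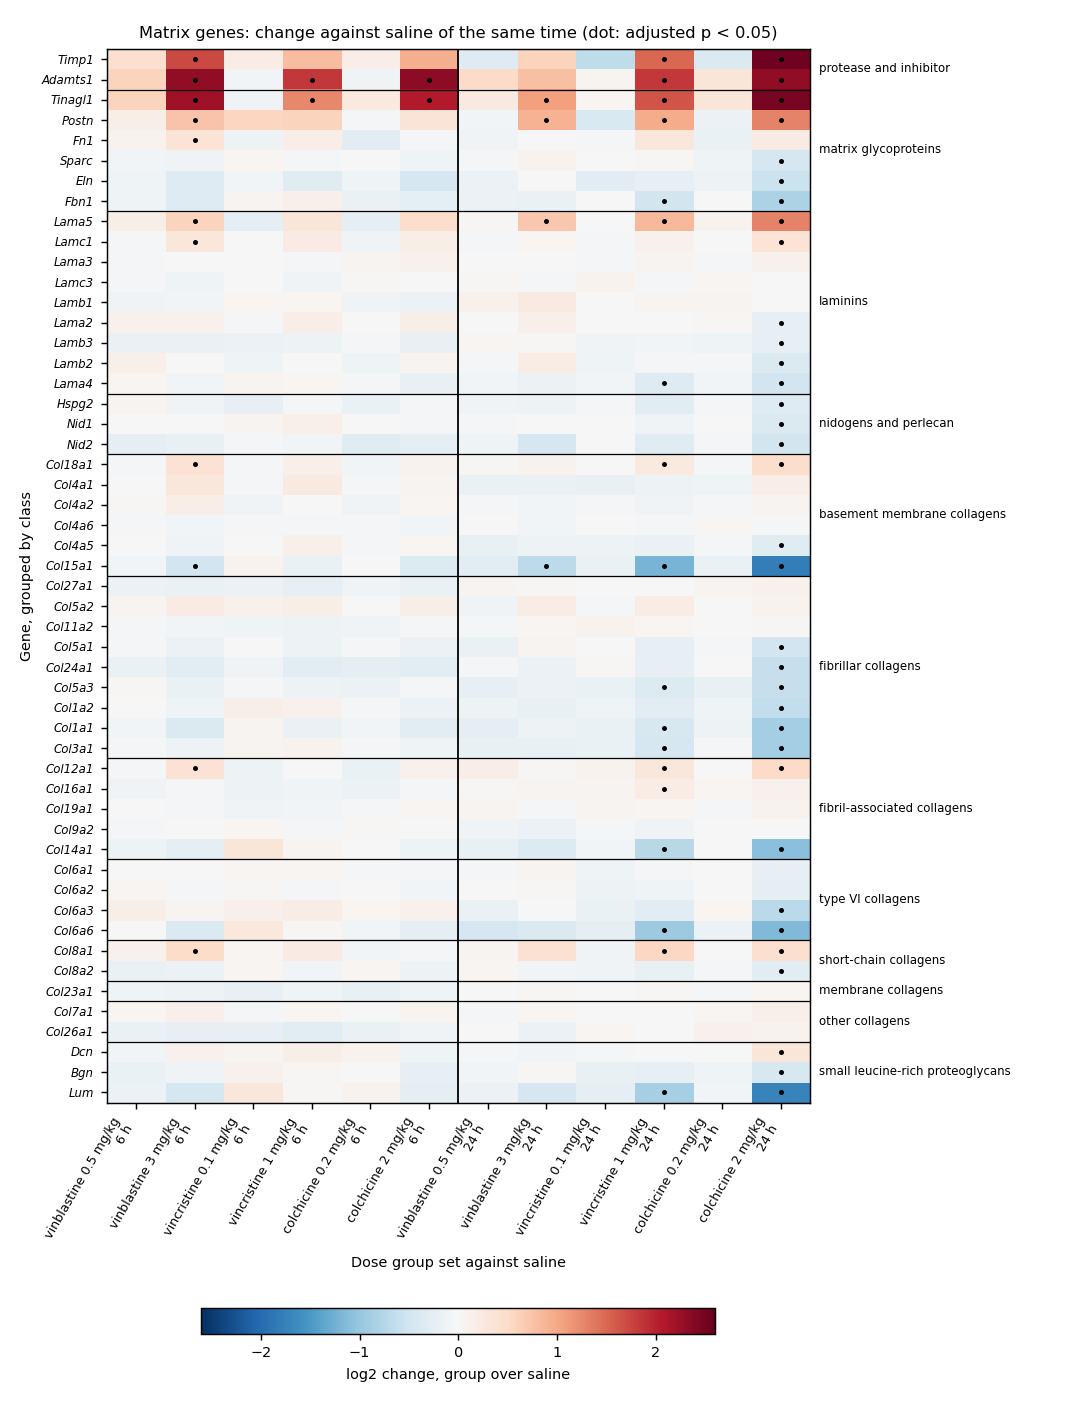
Each row is a tested matrix gene, grouped by class, and each column a dose group set against saline of the same time (6 h left of the line, 24 h right). Colour gives the log2 change, group over saline, from blue for lower to red for higher, and dots mark an adjusted p under 0.05. Within the column for colchicine 2 mg/kg at 24 h, red is strongest for Timp1, Adamts1 and Tinagl1, and blue for Col15a1 and Lum. Adamts1 is about as red for colchicine at 6 h (2.32, against 2.30 at 24 h), and the columns of the lower doses carry no dots.

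The steepest rises were those of a protease, a protease inhibitor and a basement membrane glycoprotein. Adamts1 encodes a secreted metalloproteinase that cleaves the proteoglycans versican and aggrecan, Timp1 encodes an inhibitor of matrix metalloproteinases, and Tinagl1 encodes a basement membrane glycoprotein related to tubulointerstitial nephritis antigen. Adamts1 and Tinagl1 passed the test at the higher dose of each compound at 6 h. Their promoters, with that of Timp1 and of Col15a1, the gene with the deepest fall, are printed because these genes lead the changes. The stretches are the 250 bases before the RefSeq gene start in GRCr8, for Tinagl1 at chr5:147807264-147807513, Adamts1 at chr11:38427385-38427634 and Timp1 at chrX:3771123-3771372 on the minus strand and for Col15a1 at chr5:66297296-66297545 on the plus strand, and capitals mark a match to a motif that was searched.
Tinagl1: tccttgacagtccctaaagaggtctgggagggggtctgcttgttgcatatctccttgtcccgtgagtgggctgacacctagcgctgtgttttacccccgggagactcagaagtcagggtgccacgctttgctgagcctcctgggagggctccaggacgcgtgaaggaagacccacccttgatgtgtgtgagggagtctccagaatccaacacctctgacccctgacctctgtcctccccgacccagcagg
Adamts1: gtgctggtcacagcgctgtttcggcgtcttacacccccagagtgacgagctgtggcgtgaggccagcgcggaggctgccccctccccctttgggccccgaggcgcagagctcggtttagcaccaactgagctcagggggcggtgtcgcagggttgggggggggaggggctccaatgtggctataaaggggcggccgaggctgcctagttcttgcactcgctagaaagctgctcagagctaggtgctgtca
Timp1: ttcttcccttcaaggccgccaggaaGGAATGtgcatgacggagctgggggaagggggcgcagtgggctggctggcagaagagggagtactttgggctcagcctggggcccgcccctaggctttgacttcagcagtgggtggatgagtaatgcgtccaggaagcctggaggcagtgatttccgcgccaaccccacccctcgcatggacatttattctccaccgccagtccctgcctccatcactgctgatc
Col15a1: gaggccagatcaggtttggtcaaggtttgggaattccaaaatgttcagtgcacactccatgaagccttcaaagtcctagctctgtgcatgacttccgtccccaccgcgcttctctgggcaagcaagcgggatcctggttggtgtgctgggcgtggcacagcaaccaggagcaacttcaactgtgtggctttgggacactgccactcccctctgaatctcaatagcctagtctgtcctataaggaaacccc

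3 motifs were searched on both strands of the 300 bases around the start (250 before and 50 after). The motif of the AP-1 factors was TGANTCA, that of the TEAD factors was GGAATG and that of the glucocorticoid receptor was ACANNNTGT. The RefSeq table held a promoter for 50 of the 65 genes, of which 41 were tested. A TEAD motif lay in 8 of the 41 (19.5%), against 14.2% of all 33469 promoters, and the 8 were Col11a2, Col24a1, Col4a6, Col6a6, Lamc1, Nid1, Sparc and Timp1. In Timp1 the match stood 225 bases before the start. Among the 41, AP-1 motifs lay in the promoters of Col6a1 and Lama3 (4.88%, against 7.33% of all), and glucocorticoid receptor motifs in those of Col11a2 and Col6a1 (4.88%, against 6.86% of all). Of the 9 promoters of genes under the filter, that of Col17a1 held a TEAD motif and that of Col4a4 a glucocorticoid receptor motif. The windows of Tinagl1, Adamts1 and Col15a1 held none of the 3 letter patterns. A match is a description of letters and not a measured site.

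Intensities below are given as lowest, median and highest of 6 hearts, at 3 mg/kg vinblastine, 1 mg/kg vincristine and 2 mg/kg colchicine; these doses differ, so the compounds are set side by side and not compared. At 6 h Adamts1 read 903, 1052 and 1652 after vinblastine, 216, 953 and 2156 after vincristine, 188, 1601 and 1748 after colchicine and 179, 209 and 285 after saline. Every vinblastine heart lay above every saline heart, and the vincristine and colchicine ranges overlapped the saline range. Its log2 change was 2.30 ± 0.46 for vinblastine (adjusted p = 0.000155), 1.84 ± 0.46 for vincristine (adjusted p = 0.015) and 2.32 ± 0.46 for colchicine (adjusted p = 0.000401). The low vincristine and colchicine hearts were replicates 3 and 4, both among the 10 arrays, and without the 10 the changes were 2.20 ± 0.21 (adjusted p = 2.49e-12) for vincristine and 2.82 ± 0.21 (adjusted p = 3.61e-17) for colchicine. The vincristine call was lost when replicate 4 or replicate 5 of that group was left out. At 24 h the gene read 241, 338 and 573 after vinblastine, 532, 753 and 1029 after vincristine, 231, 1232 and 1659 after colchicine and 159, 190.5 and 215 after saline. Hearts of all 3 higher-dose groups lay above every saline heart. The changes were 0.79 ± 0.46 for vinblastine (adjusted p = 0.316), 1.85 ± 0.46 for vincristine (adjusted p = 0.00116) and 2.30 ± 0.46 for colchicine (adjusted p = 2.43e-05), so the gene rose after vincristine and colchicine and missed the threshold after vinblastine. None of the 10 arrays lies in the vinblastine 3 mg/kg or saline groups at 24 h. Leaving them out kept the vinblastine change at 0.79 and lowered its pooled SE from 0.46 to 0.20 (adjusted p = 0.00346), which passed.

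Tinagl1 read 962, 1118 and 2505 after vinblastine, 284, 778 and 1054 after vincristine, 294, 1474 and 1492 after colchicine and 203, 257 and 341 after saline at 6 h. Every vinblastine heart lay above every saline heart, and the vincristine and colchicine ranges overlapped the saline range. Its changes were 2.20 ± 0.32 for vinblastine (adjusted p = 2.46e-06), 1.25 ± 0.32 for vincristine (adjusted p = 0.0185) and 2.06 ± 0.32 for colchicine (adjusted p = 4.56e-05), all rises. The vincristine call was lost when replicate 4, 5 or 6 of that group was left out. At 24 h the readings were 379.8, 596 and 808 after vinblastine, 623, 879.9 and 1282 after vincristine, 361, 1983 and 2395 after colchicine and 238, 261 and 358 after saline. Hearts of all 3 higher-dose groups lay above every saline heart, and the lowest colchicine heart, replicate 1, stood far below the other 5. The rises at that time were 1.06 ± 0.32 for vinblastine (adjusted p = 0.0236), 1.64 ± 0.32 for vincristine (adjusted p = 5.43e-05) and 2.46 ± 0.32 for colchicine (adjusted p = 3.51e-09), and the vinblastine call was lost without replicate 1 of that group. With all arrays kept, Tinagl1 was thus the one matrix gene past the threshold in all 6 comparisons of a higher dose with saline. Without the 10 arrays, Adamts1 and Lama5 passed in all 6 as well.

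Timp1 at 6 h read 258, 370.2 and 4065 after vinblastine, 184, 286 and 366 after vincristine, 129, 295 and 862 after colchicine and 121, 148 and 234 after saline. Every vinblastine heart lay above every saline heart, and the vincristine and colchicine ranges overlapped the saline range, and vinblastine replicate 1 was the heart with the highest reading. Only the vinblastine change passed, with 1.72 ± 0.40 for vinblastine (adjusted p = 0.00111), 0.81 ± 0.40 for vincristine (adjusted p = 0.267) and 0.94 ± 0.40 for colchicine (adjusted p = 0.142). Without the 10 arrays the vinblastine change was 1.14 ± 0.26 (adjusted p = 0.000882), and the vincristine and colchicine changes passed at 0.92 ± 0.26 (adjusted p = 0.0118) and 1.17 ± 0.26 (adjusted p = 0.000482). At 24 h Timp1 read 247, 329 and 496 after vinblastine, 396, 696 and 922 after vincristine, 195, 1745 and 4286 after colchicine and 118, 212 and 314 after saline. Every vincristine heart lay above every saline heart, and the vinblastine and colchicine ranges overlapped the saline range. The gene rose after vincristine and colchicine, with changes of 1.50 ± 0.40 for vincristine (adjusted p = 0.00265) and 2.54 ± 0.40 for colchicine (adjusted p = 2.85e-07), and the vinblastine change was 0.58 ± 0.40 (adjusted p = 0.437). The colchicine rise was the steepest of the 34 called changes in that group, a 5.81-fold change on the log2(intensity + 16) scale, and 5 of 6 hearts lay above the saline mean.

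**Figure D2:**
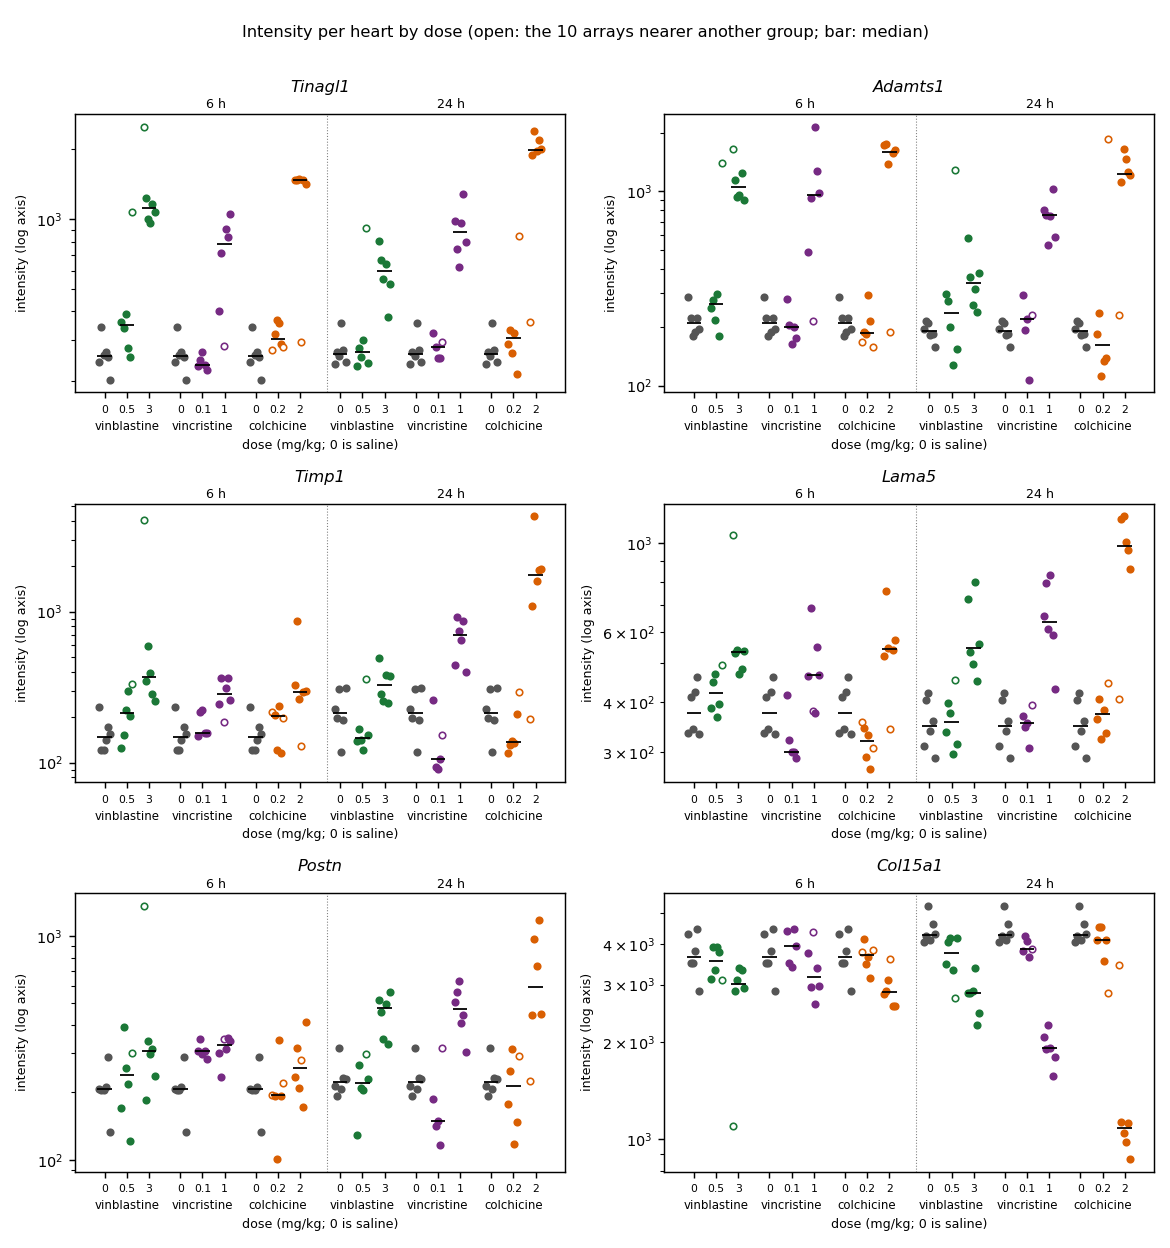
Each panel shows the intensity of a gene in every heart (log axis) against dose in mg/kg for the 3 compounds at 6 h and 24 h, with 0 for saline, the same saline hearts repeated for each compound, bars at the medians and open symbols for the 10 arrays nearer another group. The filled symbols at the higher doses stand above those at the lower doses for Tinagl1 and Adamts1 at 6 h, while Col15a1 falls below saline at the higher doses at 24 h, with colchicine medians at 1086 against 4269 in saline hearts.

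Among the other matrix glycoproteins, periostin stood out. Postn encodes periostin, a matricellular protein secreted by activated fibroblasts. At 24 h it read 329, 478 and 562 after vinblastine, 302, 474 and 629 after vincristine, 226, 589 and 1179.7 after colchicine and 193, 222 and 316 after saline. Every vinblastine heart lay above every saline heart, and the vincristine and colchicine ranges overlapped the saline range. It rose in all 3 comparisons, with changes of 0.90 ± 0.28 for vinblastine (adjusted p = 0.0293), 0.96 ± 0.28 for vincristine (adjusted p = 0.00644) and 1.28 ± 0.28 for colchicine (adjusted p = 0.000131). The vinblastine call at 24 h was the least stable of these, kept when 5 of 12 animals were left out one at a time and lost for the other 7. At 6 h Postn read 184, 305 and 1363 after vinblastine and 133, 206 and 288 after saline. These ranges overlapped, and 1 vinblastine heart, replicate 1, held the reading of 1363. The change was 0.75 ± 0.28 (adjusted p = 0.045), and without the 10 arrays it was 0.37 ± 0.24 (adjusted p = 0.332).

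Fn1, which encodes fibronectin, the glycoprotein that bridges integrins and collagen, read 855, 1069 and 1443 after vinblastine at 6 h and 763, 876 and 930.3 after saline, with overlapping ranges. Its rise of 0.35 ± 0.12 (adjusted p = 0.0324) was 0.27 ± 0.13 (adjusted p = 0.169) without the 10 arrays and was kept for 7 of 12 animals left out, and it passed in no other comparison. Fbn1, which encodes fibrillin, the backbone of microfibrils, read 685, 834 and 1028 after vinblastine, 464, 747 and 879 after vincristine, 461, 493 and 852 after colchicine and 778, 958 and 1299 after saline at 24 h. All 3 higher-dose ranges overlapped that of saline. It fell after vincristine and colchicine, with changes of -0.48 ± 0.13 for vincristine (adjusted p = 0.00431) and -0.82 ± 0.13 for colchicine (adjusted p = 6.64e-07), and the vinblastine change was -0.18 ± 0.13 (adjusted p = 0.486). Eln, which encodes elastin, fell after colchicine at 24 h with a log2 change of -0.56 ± 0.18 (adjusted p = 0.00663), and so did Sparc, a collagen-binding matricellular protein, with -0.43 ± 0.10 (adjusted p = 0.000312). Both ranges overlapped saline, Eln with 372, 456 and 838 in colchicine hearts against 623, 716 and 948 in saline hearts, and Sparc with 3906, 4727 and 6043 against 5770.4, 6552 and 7531.

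Of the 9 laminin genes tested, 2 rose and 4 fell after colchicine at 24 h, 1 rose and 1 fell after vincristine, and 1 rose after vinblastine. Among all genes 19.3% rose and 25.3% fell after colchicine, 12% and 18.4% after vincristine and 5.29% and 4.28% after vinblastine. With the 10 arrays left out, 3 laminins rose and 4 fell after colchicine and 2 rose after vinblastine. Lama5, which encodes an alpha chain of vascular basement membranes, was the laminin that rose in each. At 24 h it read 453, 547 and 797 after vinblastine, 431, 634 and 830.0 after vincristine, 407, 983 and 1167 after colchicine and 289.6, 349 and 421 after saline. The vinblastine and vincristine hearts all lay above every saline heart, and the colchicine range overlapped the saline range, the colchicine exception being replicate 1. The rises were 0.71 ± 0.17 for vinblastine (adjusted p = 0.00223), 0.83 ± 0.17 for vincristine (adjusted p = 5.78e-05) and 1.28 ± 0.17 for colchicine (adjusted p = 2e-09). At 6 h the readings were 471, 535 and 1049 after vinblastine, 376, 467 and 687 after vincristine, 343, 544 and 757 after colchicine and 332, 377 and 464 after saline, and the vinblastine rise of 0.58 ± 0.17 (adjusted p = 0.00721) was lost without replicate 1 of that group. The 6 h changes for vincristine and colchicine were 0.31 ± 0.17 for vincristine (adjusted p = 0.301) and 0.47 ± 0.17 for colchicine (adjusted p = 0.0607). Without the 10 arrays they were 0.37 ± 0.13 (adjusted p = 0.0398) and 0.59 ± 0.13 (adjusted p = 0.000257), both past the threshold.

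Lamc1, which encodes the gamma chain shared by most laminin trimers, rose after colchicine at 24 h by 0.36 ± 0.09 (adjusted p = 0.000887), with readings of 3312, 4488 and 5323 in colchicine hearts and 2939, 3329 and 3854 in saline hearts. It also rose after vinblastine at 6 h by 0.30 ± 0.09 (adjusted p = 0.013), where without the 10 arrays the change was 0.19 ± 0.09 (adjusted p = 0.124). The 4 laminins that fell after colchicine were Lama4, an endothelial alpha chain, Lama2, the alpha chain of the muscle basement membrane, Lamb2, a beta chain found in muscle and vessels, and Lamb3, a chain of epithelial laminin. Their log2 changes lay between -0.50 (Lama4) and -0.21 (Lama2, a call kept for 7 of 12 animals left out), and all 4 colchicine ranges overlapped saline. Lama4 alone also fell after vincristine, with readings of 834, 1015 and 1104 in vincristine hearts against 1147, 1197 and 1635 in saline hearts that did not overlap, and a change of -0.34 ± 0.11 (adjusted p = 0.0109). That call was lost without saline replicate 3, the highest saline heart. Lama3, Lamb1 and Lamc3 passed in no comparison with saline.

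Nid1 and Nid2 encode nidogens, which join laminin to type IV collagen, and Hspg2 encodes perlecan, a heparan sulphate proteoglycan of the same sheet. All 3 fell after colchicine at 24 h and, with all arrays kept, in no other comparison with saline. Of all genes, 25.3% fell after colchicine at that time. The changes were -0.38 ± 0.10 (adjusted p = 0.00129) for Nid1, -0.47 ± 0.16 (adjusted p = 0.0109) for Nid2 and -0.34 ± 0.13 (adjusted p = 0.03) for Hspg2, and each range overlapped that of saline. Leaving out single animals cost Hspg2 its call for 6 of 12 animals and Nid2 for 2 of 12. Without the 10 arrays nearer another group, all 3 genes fell after colchicine and 1 of them also fell after vinblastine 3 mg/kg at 24 h.

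Among the basement membrane collagens, the 2 genes whose products release endostatin-type fragments moved in opposite directions. Col15a1 encodes type XV collagen, found around muscle fibres and capillaries, and Col18a1 encodes type XVIII collagen. At 24 h Col15a1 read 2246, 2821 and 3379 after vinblastine, 1566, 1911 and 2258 after vincristine, 871, 1086 and 3445 after colchicine and 4071, 4269 and 5252 after saline. Hearts of all 3 higher-dose groups lay below every saline heart, and 5 of the 6 colchicine hearts read 1136 or less, with replicate 1 at 3445. The falls were -0.68 ± 0.18 for vinblastine (adjusted p = 0.00617), -1.21 ± 0.18 for vincristine (adjusted p = 1.93e-07) and -1.80 ± 0.18 for colchicine (adjusted p = 6.5e-12). The colchicine fall was the deepest of the 24, to a level 3.48-fold lower on the log2(intensity + 16) scale, and without the 10 arrays it was -2.09 ± 0.10 (adjusted p = 5.88e-28). At 6 h the gene read 1102, 3015 and 3369.9 after vinblastine, 2616, 3173 and 4365 after vincristine, 2581, 2839 and 3605 after colchicine and 2859, 3654 and 4466 after saline, with changes of -0.50 ± 0.18 for vinblastine (adjusted p = 0.0328), -0.17 ± 0.18 for vincristine (adjusted p = 0.641) and -0.35 ± 0.18 for colchicine (adjusted p = 0.237). Of these the vinblastine fall passed, and it was -0.25 ± 0.10 (adjusted p = 0.0766) without the 10 arrays.

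Col18a1 rose after vincristine and colchicine at 24 h, with changes of 0.26 ± 0.10 for vincristine (adjusted p = 0.0301) and 0.46 ± 0.10 for colchicine (adjusted p = 5.47e-05), and the vinblastine change was 0.08 ± 0.10 (adjusted p = 0.684). The vincristine call was kept for 8 of 12 animals left out. It read 191, 293 and 332 in colchicine hearts against 173, 197 and 229.6 in saline hearts, which overlapped. At 6 h it rose after vinblastine by 0.37 ± 0.10 (adjusted p = 0.00276), a call kept without the 10 arrays at 0.29 ± 0.08 (adjusted p = 0.0098). Of the type IV collagen chains, the core of the basement membrane, Col4a5 fell after colchicine at 24 h with a log2 change of -0.32 ± 0.08 (adjusted p = 0.00121). The most widely used chains, Col4a1 and Col4a2, passed in no comparison with saline, and their changes after colchicine at 24 h were 0.18 ± 0.12 (adjusted p = 0.212) and 0.06 ± 0.11 (adjusted p = 0.672).

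Of the 9 fibrillar collagens tested, 6 fell after colchicine at 24 h and 3 after vincristine, and 0 rose in either in limma, while 25.3% and 18.4% of all genes fell. The other 3 and 6 did not pass, and the counts were the same without the 10 arrays. Log2 changes of the 9 ran from -0.89 to 0.12 after colchicine and from -0.43 to 0.20 after vincristine, and the class as a whole was not tested. Their median log2 change after colchicine was -0.59. Col3a1, which encodes type III collagen, read 9191, 10172 and 11832 after vinblastine, 7898, 8131 and 10304 after vincristine, 5069, 5543 and 9620.5 after colchicine and 10385, 11674 and 13386 after saline at 24 h. The vincristine and colchicine hearts all lay below every saline heart, and the vinblastine range overlapped the saline range. Its falls were -0.43 ± 0.11 for vincristine (adjusted p = 0.00139) and -0.89 ± 0.11 for colchicine (adjusted p = 6.41e-10), and the vinblastine change was -0.19 ± 0.11 (adjusted p = 0.322). Col1a1, which encodes a chain of type I collagen, read 2811, 3759.5 and 4586 after vinblastine, 2357, 2988 and 3468 after vincristine, 1721, 1912 and 3436 after colchicine and 3514, 3979 and 4576 after saline. The vincristine and colchicine hearts all lay below every saline heart, and the vinblastine range overlapped the saline range. Its falls were -0.42 ± 0.16 for vincristine (adjusted p = 0.0339) and -0.89 ± 0.16 for colchicine (adjusted p = 2.92e-06), the vincristine call being kept for 6 of 12 animals left out one at a time, and the vinblastine change was -0.13 ± 0.16 (adjusted p = 0.707).

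Col1a2, the partner chain of Col1a1, fell after colchicine with a log2 change of -0.64 ± 0.12 (adjusted p = 1.41e-05), with readings of 2074, 2343 and 3430.2 in colchicine hearts and 3412, 3889.8 and 4712 in saline hearts that overlapped. Col5a1 and Col5a3, chains of the type V collagen that starts fibrils, fell with a log2 change of -0.49 ± 0.12 (adjusted p = 0.000694) and -0.60 ± 0.14 (adjusted p = 0.000233). Col5a3 also fell after vincristine with a log2 change of -0.36 ± 0.14 (adjusted p = 0.0417), a call kept for 5 of 12 animals left out. Col24a1, a minor fibrillar collagen, read 44.4, 60.8 and 77.6 after colchicine against 81.2, 98.6 and 117 after saline, with no overlap and a change of -0.59 ± 0.14 (adjusted p = 0.00051). Col5a2, Col11a2 and Col27a1 passed in no comparison with saline, and 0 of the 9 fibrillar genes passed in any at 6 h in the limma fit.

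Fibril-associated collagens sit on the surface of collagen fibres, and of their 5 tested genes 1 rose and 1 fell after colchicine at 24 h and 2 rose and 1 fell after vincristine. Among all genes 19.3% rose and 25.3% fell after colchicine, and 12% and 18.4% after vincristine. Col14a1, type XIV collagen, read 657, 725 and 829 after vinblastine, 501, 562 and 641 after vincristine, 300.2, 383 and 800.3 after colchicine and 856, 913 and 1171 after saline at 24 h. Hearts of all 3 higher-dose groups lay below every saline heart. It fell after vincristine and colchicine, with changes of -0.72 ± 0.13 for vincristine (adjusted p = 2.04e-05) and -1.09 ± 0.13 for colchicine (adjusted p = 6.84e-10), and the vinblastine change was -0.35 ± 0.13 (adjusted p = 0.0848), which became -0.35 ± 0.11 (adjusted p = 0.0151) and passed without the 10 arrays. None of the 10 lies in those vinblastine and saline groups, so the pooled SE differed and the change did not. Col12a1, the related type XII collagen, went the other way, with readings of 40.1, 54.4 and 68.0 after vinblastine, 54.6, 67.9 and 85.6 after vincristine, 53.9, 78.3 and 109 after colchicine and 43.4, 52.2 and 56.1 after saline. All 3 higher-dose ranges overlapped that of saline. The rises were 0.30 ± 0.11 for vincristine (adjusted p = 0.0417) and 0.49 ± 0.11 for colchicine (adjusted p = 0.000266), and the vinblastine change was 0.03 ± 0.11 (adjusted p = 0.911). The vincristine call was kept for 5 of 12 animals left out one at a time, and with the mean of all probe sets the change was 0.11 (adjusted p = 0.109). It also rose after vinblastine at 6 h, by 0.38 ± 0.11 (adjusted p = 0.0111), a call lost without replicate 1 of that group and without the 10 arrays (0.22, adjusted p = 0.107). Col16a1 rose after vincristine at 24 h, by 0.19 ± 0.07 (adjusted p = 0.0245), a call kept for 10 of 12 animals left out, and Col9a2 and Col19a1 passed in no comparison with saline.

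Type VI collagen forms beaded filaments between the basement membrane and the fibres. Of its 4 tested genes, Col6a3 and Col6a6 fell after colchicine at 24 h, Col6a6 fell after vincristine, and Col6a1 and Col6a2 passed in no comparison with saline. With all arrays kept, 25.3% of all genes fell after colchicine and 18.4% after vincristine. All 4 type VI genes fell after colchicine and 2 after vincristine when the 10 arrays were left out. Col6a6 read 81.1, 90.7 and 170.0 after vinblastine, 54.8, 64.3 and 82.6 after vincristine, 45.5, 49.2 and 105 after colchicine and 110.3, 144 and 197 after saline. The vincristine and colchicine hearts all lay below every saline heart, and the vinblastine range overlapped the saline range. Its falls were -0.94 ± 0.18 for vincristine (adjusted p = 3.11e-05) and -1.15 ± 0.18 for colchicine (adjusted p = 1.87e-07), and the vinblastine change was -0.38 ± 0.18 (adjusted p = 0.181). Col6a3 read 781, 1100.3 and 1592 after colchicine and 1491, 1833 and 2028 after saline, with overlap, and fell with a log2 change of -0.71 ± 0.12 (adjusted p = 2.11e-06). In the short-chain type VIII collagen of vessel walls, Col8a1 rose after vincristine and colchicine at 24 h, by 0.53 ± 0.16 for vincristine (adjusted p = 0.00777) and 0.41 ± 0.16 for colchicine (adjusted p = 0.0312), and after vinblastine at 6 h, by 0.47 ± 0.16 (adjusted p = 0.0248). Its readings at 24 h were 159.9, 231 and 298 after vinblastine, 192, 244 and 335 after vincristine, 169.6, 237 and 314 after colchicine and 130.1, 168 and 225 after saline, and every range overlapped saline. The colchicine call was kept for 7 of 12 animals left out one at a time. The vinblastine call at 6 h was kept for 8 of 12, and without the 10 arrays that change was 0.32 (adjusted p = 0.18) and did not pass. Its partner Col8a2, close to the filter, fell after colchicine with a log2 change of -0.29 ± 0.12 (adjusted p = 0.0367), a call kept for 6 of 12 animals left out.

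The small leucine-rich proteoglycans bind collagen fibres and set their spacing. Lum, which encodes lumican, read 1480.0, 1727 and 2108 after vinblastine, 1092, 1315 and 1379.8 after vincristine, 439.7, 569 and 1987 after colchicine and 2133, 2248 and 2693 after saline at 24 h. Hearts of all 3 higher-dose groups lay below every saline heart, with colchicine replicate 1 at 1987 near the saline hearts. It fell after vincristine and colchicine, with changes of -0.87 ± 0.19 for vincristine (adjusted p = 0.000223) and -1.74 ± 0.19 for colchicine (adjusted p = 3.14e-11), and the vinblastine change of -0.44 ± 0.19 (adjusted p = 0.139) missed the threshold and was -0.44 ± 0.13 (adjusted p = 0.0114) without the 10 arrays. There too the pooled SE differed, since none of the 10 lies in those vinblastine and saline groups. Bgn, biglycan, fell after colchicine with a log2 change of -0.41 ± 0.10 (adjusted p = 5e-04). Dcn, decorin, rose there by 0.31 ± 0.13 (adjusted p = 0.0402), with readings of 7937, 10742 and 11707 in colchicine hearts and 7717, 7975 and 9002 in saline hearts that overlapped. The call for Dcn was lost for 9 of 12 animals left out one at a time.

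**Figure D3:**
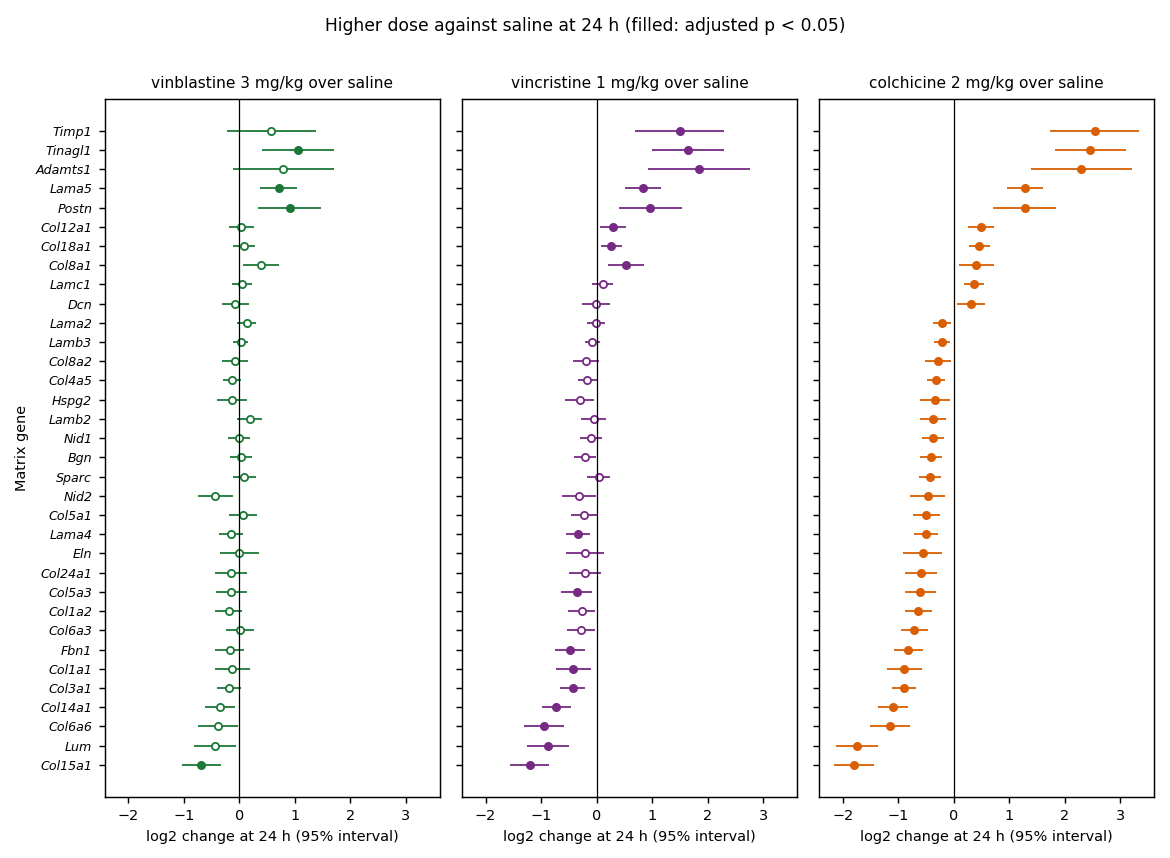
Points give the log2 change at 24 h of the higher dose of each compound over saline, with 95% intervals, for the 34 genes past the threshold after colchicine, and filled points mark an adjusted p under 0.05. The order runs from Timp1 at 2.54 to Col15a1 at -1.80 in the colchicine panel, and 4 points are filled in the vinblastine panel.

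Ranges of treated and saline hearts did not overlap for 9 of the 34 genes called after colchicine at 24 h, 11 of the 18 called after vincristine and 4 of the 4 called after vinblastine. Among all genes called in the same comparisons, 19.1%, 61.5% and 50.6% had separate ranges, which is 8.52%, 18.7% and 4.84% of all genes tested. At 6 h this held for 4 of the 11 genes called after vinblastine, while 0 of the 2 genes called after vincristine and 0 of the 2 called after colchicine had separate ranges in the limma fit. There the shares of all called genes were 30.2%, 20.1% and 9.72%, and those of all genes tested 7.04%, 0.663% and 0.901%. Of the genes called after colchicine at 24 h, 15 had more than 1 probe set. In 13 of them 1 further probe set was above the filter, and its change had the same sign as that of the brightest one in all 13. The size differed, with -0.02 against -0.38 for Nid1, 0.02 against 0.49 for Col12a1 and -0.18 against -0.56 for Eln. The further probe set gave the larger change for Col18a1 (0.72), Col1a1 (-0.97), Col1a2 (-0.87) and Fbn1 (-0.86). The further probe sets of Lama4 (-0.06) and Lama5 (-0.01 and 0.08) were above the 40th percentile on 0 arrays, and with the mean of all probe sets the changes were -0.28 for Lama4 and 0.45 for Lama5, against -0.50 and 1.28.

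At the lower doses no matrix gene passed the test in the limma fit. The count was 0 of 52 for each compound and time, against 0.0353% of all genes after vinblastine 0.5 mg/kg at 6 h, 0% after vincristine 0.1 mg/kg at 6 h and 0.274% after colchicine 0.2 mg/kg at 6 h. At 24 h the background was 0% for each of the 3 lower doses. Genes with an unadjusted p under 0.05 numbered 2, 2 and 3 of 52 after vinblastine, vincristine and colchicine at 6 h and 2, 0 and 0 at 24 h. Of all genes, 5.22%, 3.9% and 6.69% had one at 6 h and 2.01%, 2.79% and 2.55% at 24 h. Without the 10 arrays, 6 of which are lower-dose hearts, the counts past the test were also 0. For Tinagl1, the 5 vincristine 0.1 mg/kg hearts at 6 h read 233, 248, 267, 235 and 224, inside the saline range of 203 to 341. The vinblastine 0.5 mg/kg hearts at 6 h read 255, 349.9 and 1071 and the colchicine 0.2 mg/kg hearts 273, 304 and 368. The highest of the vinblastine hearts was replicate 6 and stood apart from the other 5.

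Set against the lower dose at 6 h, the higher vinblastine dose gave 6 rises and 0 falls, among 5.81% rises and 2.71% falls of all genes. The 6 were Adamts1, with a log2 change of 1.73 ± 0.46 (adjusted p = 0.0125), Tinagl1, with 1.62 ± 0.32 (adjusted p = 0.0023), Timp1, with 1.30 ± 0.40 (adjusted p = 0.0313), Col18a1, with 0.43 ± 0.10 (adjusted p = 0.0039), Col12a1 and Lamc1. All 6 of those calls were lost when the vinblastine groups were fitted alone, and when the 6 arrays with names ending in _2 were left out. Without vinblastine 3 mg/kg replicate 1 the count was 2, with changes of 0.72 (adjusted p = 0.36) for Timp1 and 1.62 (adjusted p = 0.0617) for Adamts1, and without the 10 arrays it was 5. The higher vincristine dose gave 2 rises and 0 falls, with 1.61% and 1.2% of all genes: Adamts1 by 1.92 ± 0.48 (adjusted p = 0.017) and Tinagl1 by 1.35 ± 0.34 (adjusted p = 0.0175). That count was 0 without replicate 4 or replicate 5 of the 1 mg/kg group, 1 without its replicate 6 or without replicate 3 of the 0.1 mg/kg group, and 4 without the 10 arrays. The higher colchicine dose gave 3 rises and 0 falls, with 4.47% and 4.78% of all genes: Adamts1 by 2.43 ± 0.46 (adjusted p = 0.00021), Tinagl1 by 1.80 ± 0.32 (adjusted p = 0.000117) and Lama5 by 0.72 ± 0.17 (adjusted p = 0.00183). That count was 5 without colchicine 2 mg/kg replicate 4 and 6 without the 10 arrays. Unadjusted p was under 0.05 in limma for 12 genes with vinblastine, 7 with vincristine and 7 with colchicine, in either direction (23.1%, 13.5% and 13.5% of the 52), against 25.1%, 17% and 20.6% of all genes.

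Time was tested as the change against saline at 24 h minus that at 6 h, a test of the difference itself. For colchicine 2 mg/kg, 4 genes had a positive difference and 13 a negative one, with 6.3% and 12.6% of all genes. The 13 were the collagen genes Col1a1, Col1a2, Col3a1, Col4a5, Col5a3, Col6a3, Col6a6, Col14a1 and Col15a1, with Lama2, Lamb2, Fbn1 and Lum. The difference was -1.48 ± 0.27 (adjusted p = 5.5e-05) for Lum, -1.45 ± 0.25 (adjusted p = 3.66e-05) for Col15a1, -0.96 ± 0.19 (adjusted p = 0.000188) for Col14a1 and -0.78 ± 0.15 (adjusted p = 0.000197) for Col3a1. The 4 positive ones were Timp1, with 1.60 ± 0.57 (adjusted p = 0.037), Lama5, with 0.82 ± 0.23 (adjusted p = 0.00833), Col18a1 and Col27a1. The count of 17 was 7 without colchicine 24 h replicate 3, 10 without colchicine 24 h replicate 6, 11 without saline 6 h replicate 6 or saline 24 h replicate 3, 4 or 5, and 22 without the 10 arrays. The calls for Timp1, Col1a1, Col5a3, Col18a1 and Lamb2 were kept for 14, 9, 10, 11 and 10 of 24 animals left out one at a time. Adamts1 and Tinagl1 showed no such difference past the threshold, with -0.03 ± 0.65 (adjusted p = 0.985) and 0.40 ± 0.46 (adjusted p = 0.611).

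For vincristine 1 mg/kg, 1 gene had a positive difference and 6 a negative one, with 3.53% and 8.73% of all genes. The 6 were Col15a1, with -1.04 ± 0.25 (adjusted p = 0.00313), Col6a6, with -0.98 ± 0.25 (adjusted p = 0.00623), Lum, with -0.91 ± 0.27 (adjusted p = 0.016), Col14a1, Fbn1 and Col3a1, and the positive one was Col16a1, whose call was kept for 9 of 24 animals left out. The count of 7 was 8 without the 10 arrays. For vinblastine 3 mg/kg, 0 of 52 passed in limma, with 4.44% of all genes, and 7 (13.5%) had an unadjusted p under 0.05, against 20% of all genes. The count was 3 without the 10 arrays and 1 without replicate 6 at 6 h or without replicate 1 at 24 h. Adamts1 came to -1.51 ± 0.65 (adjusted p = 0.164) there, Timp1 to -1.14 ± 0.57 (adjusted p = 0.247) and Tinagl1 to -1.14 ± 0.46 (adjusted p = 0.133). In saline hearts alone, 24 h against 6 h, 0 of 52 passed, with 0.00883% of all genes, and 4 (7.69%) had an unadjusted p under 0.05, against 12.6% of all genes.

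**Figure D4:**
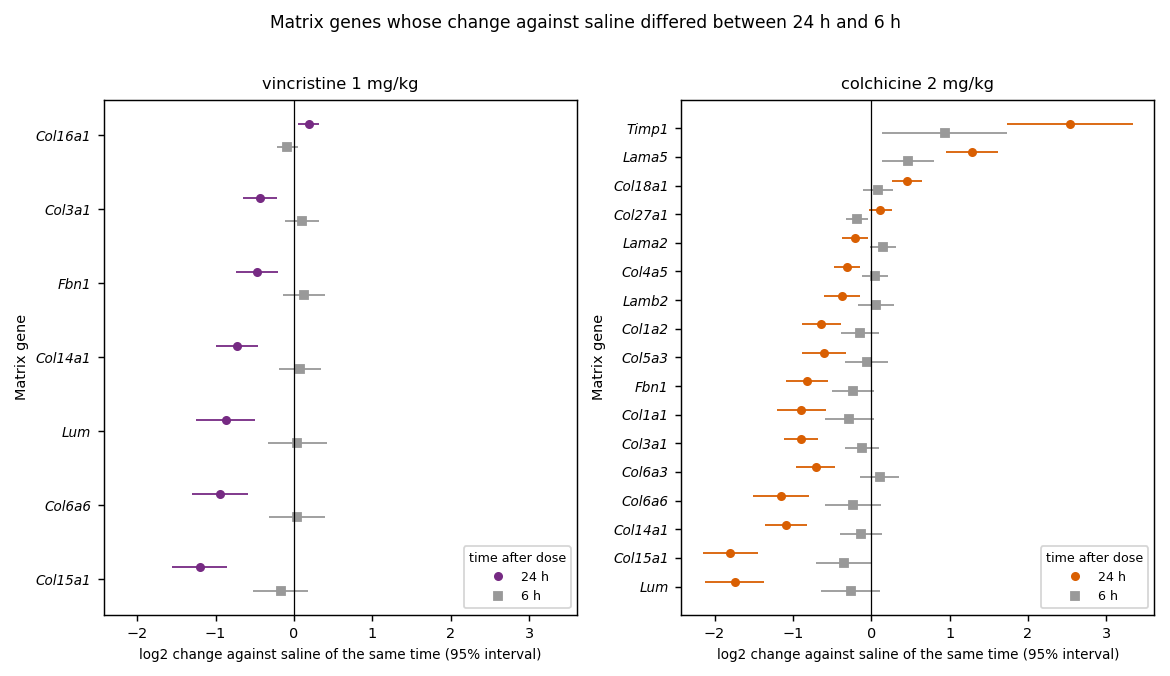
For each matrix gene whose change differed between times, circles give the log2 change against saline at 24 h and squares that at 6 h, with 95% intervals, after vincristine 1 mg/kg (left) and colchicine 2 mg/kg (right). The 24 h points of Col15a1 lie at -1.21 and -1.80, while its 6 h points lie at -0.17 and -0.35.

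Genes that make, cut or read the matrix were counted from other lists. Of 19 tested genes for collagen making and crosslinking, 4 rose after vinblastine, 4 rose and 2 fell after vincristine, and 9 rose and 2 fell after colchicine at 24 h. The rises after colchicine were led by Lox, the enzyme that crosslinks collagen and elastin, with a log2 change of 1.07 ± 0.18 (adjusted p = 1.67e-06), the transglutaminase Tgm2 (0.75 ± 0.13, adjusted p = 2.46e-06) and the lysyl hydroxylase Plod2 (0.72 ± 0.17, adjusted p = 0.000273). Loxl1, a relative of Lox, fell (-0.51 ± 0.13, adjusted p = 0.000999). Crosslinking enzymes were among the genes that rose in the same hearts in which Col1a1, Col1a2 and Col3a1 fell.

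Of 21 matrix proteases and inhibitors other than Adamts1 and Timp1, 2 rose after vinblastine, 6 rose and 4 fell after vincristine, and 8 rose and 5 fell after colchicine at 24 h. Plaur, the urokinase receptor, rose after colchicine (1.65 ± 0.26, adjusted p = 3.72e-07), as did the plasminogen activator Plat (1.30 ± 0.23, adjusted p = 2.03e-06) and the aggrecanase Adamts4 (1.23 ± 0.18, adjusted p = 3.87e-08). Mmp14, a membrane-bound collagenase, rose after vincristine (1.25 ± 0.20, adjusted p = 1.27e-06) and colchicine (1.20 ± 0.20, adjusted p = 1.09e-06). Mmp15, another membrane-bound metalloproteinase, fell after vincristine (-1.29 ± 0.21, adjusted p = 2.09e-06) and colchicine (-1.77 ± 0.21, adjusted p = 4.38e-10). Of 21 matrix receptors, 2 rose and 3 fell after vinblastine, 2 rose and 4 fell after vincristine, and 7 rose and 5 fell after colchicine. The syndecan Sdc4 rose after colchicine (1.32 ± 0.21, adjusted p = 2.57e-07), and the laminin-binding integrin chain Itga6 (-1.33 ± 0.17, adjusted p = 1.9e-09) and the collagen receptor Ddr2 (-0.93 ± 0.12, adjusted p = 2.65e-09) fell.

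Of 18 genes of TGF-beta signalling and its targets, 0 rose and 1 fell after vinblastine, 3 rose and 5 fell after vincristine, and 5 rose and 4 fell after colchicine at 24 h. Ccn1 and Ccn2, secreted matricellular proteins, rose after colchicine by 2.11 ± 0.71 (adjusted p = 0.0107) and 2.08 ± 0.40 (adjusted p = 1.58e-05), while the ligand Tgfb3 fell (-1.04 ± 0.16, adjusted p = 9.78e-08). Of 28 other matricellular and elastic fibre genes, 2 rose and 1 fell after vinblastine, 2 rose and 6 fell after vincristine, and 5 rose and 13 fell after colchicine. The falls after colchicine were led by Mfap4, a microfibril-associated protein (-1.74 ± 0.22, adjusted p = 1.91e-09), Aspn, a small leucine-rich proteoglycan (-1.64 ± 0.22, adjusted p = 4.84e-09), and Matn2, a matrilin (-0.96 ± 0.14, adjusted p = 5.11e-08). Spp1, osteopontin, rose (1.19 ± 0.27, adjusted p = 0.000162). These counts stand beside a background of 5.29% rises and 4.28% falls of all genes after vinblastine, 12% and 18.4% after vincristine and 19.3% and 25.3% after colchicine. Leaving out the 10 arrays gave, after vinblastine, 4 rises and 1 fall of proteases and inhibitors, 3 falls in TGF-beta signalling, and 4 rises and 3 falls of the other matricellular genes. Receptors then gave 5 rises after vincristine, and the list counts after colchicine were within 1.5 times of those above. In that setting 1784, 3947 and 5724 of all genes passed after vinblastine, vincristine and colchicine, against 1084, 3437 and 5049 with all arrays.

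**Figure D5:**
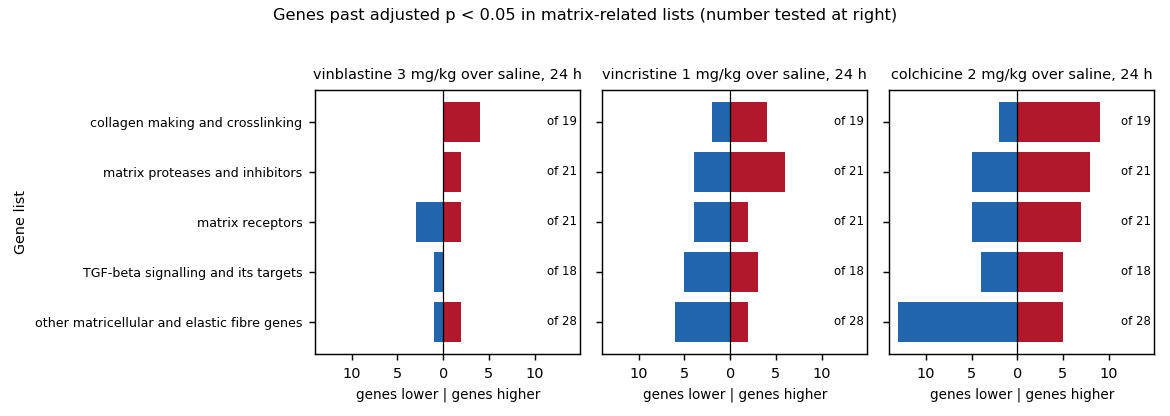
Bars count the genes past an adjusted p of 0.05 in each list of matrix-related genes at 24 h, to the right where the higher dose was above saline and to the left where it was below, with the number tested at the right edge. After colchicine the bars reach 9 genes higher for collagen making and crosslinking and 13 lower for other matricellular and elastic fibre genes.

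Markers of the cells that a heart sample can hold were read beside these genes. Of 9 fibroblast markers, 2 rose and 5 fell after colchicine at 24 h, among them Pi16 (-1.20 ± 0.18, adjusted p = 5.06e-08), Ddr2 (-0.93 ± 0.12, adjusted p = 2.65e-09) and, in the other direction, Tcf21 (1.00 ± 0.18, adjusted p = 5.25e-06). Their summed intensity was 21177 to 29355 in colchicine hearts, against 22539 to 28939.6 in saline hearts. Of 9 endothelial markers, 5 rose and 1 fell, with sums of 7240.5 to 10049 in colchicine hearts and 6616 to 8344 in saline hearts. Of 10 smooth muscle and pericyte markers, 2 rose and 3 fell, with sums of 4962 to 7211 in colchicine hearts and 6032 to 7303 in saline hearts. Of all genes, 19.3% rose and 25.3% fell in the same comparison, and these 3 marker counts were the same without the 10 arrays.

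Of 8 monocyte and macrophage markers tested, 5 rose after vinblastine, 6 after vincristine and 4 after colchicine at 24 h. Sums over all 9 on the array were 4469 to 6513 in vinblastine hearts and 3972 to 5376 in vincristine hearts. They were 2704 to 4221 in colchicine hearts and 2597 to 3217 in saline hearts. Rises among all genes came to 5.29%, 12% and 19.3%. Without the 10 arrays the counts at 24 h were 7 rises and 0 falls after vinblastine, 6 and 0 after vincristine, and 3 and 2 after colchicine. At 6 h more of these markers fell than rose in that setting. The counts were 1 rise and 3 falls after vinblastine, 1 and 6 after vincristine, and 1 and 2 after colchicine. That setting was added after seeing the data, and 1789, 1395 and 2189 of all genes passed in it, against 2642, 374 and 1049 with all arrays. With all arrays the sums at 6 h were 2569 to 4449, 1976 to 3260 and 2451 to 3374 in the same order. Each range overlapped the 2281 to 3809 of saline hearts. Of 9 neutrophil markers listed, 6 were on the array and 3 were tested, and all 3 rose after vincristine and colchicine at 24 h and after vinblastine and colchicine at 6 h. Sums over the 6 on the array, which include those under the filter, were 944 to 1691 after vinblastine at 6 h. They were 150.3 to 1241 after colchicine and 148 to 220.3 after saline at that time. At 6 h 15.7% of all genes rose after vinblastine and 4.89% after colchicine. The neutrophil genes Mmp8, Cxcr2 and Csf3r were under the filter. Of the 3 tested, S100a8 was above the 40th percentile on 31 arrays, Il1r2 on 23 and S100a9 on 70. The filter asked for only 5 arrays, so a gene bright in treated hearts alone could pass it. The count of 3 of 3 neutrophil markers therefore depends on the filter and cannot be set against the share of all genes. Markers of cardiomyocytes gave 0 rises and 3 falls of 9 after colchicine at 24 h in limma, and 1 rise and 3 falls without the 10 arrays. In the same hearts, mesothelial markers gave 2 rises and 0 falls of 3, adipocyte markers 0 rises and 1 fall of 3, and no Schwann cell marker passed. The fibroblast list shares Ddr2 with the receptor list and Mgp with the list of other matricellular genes, and the neutrophil list shares Mmp8 with the proteases. Mgp, with a mean intensity of 12692, weighs most in the fibroblast sums. The part of these cell types in the changes of the matrix genes was not tested.

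Of the tested genes, 16 passed the threshold against saline in no comparison: Col11a2, Col19a1, Col23a1, Col26a1, Col27a1, Col4a1, Col4a2, Col4a6, Col5a2, Col6a1, Col6a2, Col7a1, Col9a2, Lama3, Lamb1 and Lamc3. A p that misses the threshold does not show that these genes stayed level. The 13 genes under the filter were Col10a1, Col11a1, Col13a1, Col17a1, Col20a1, Col22a1, Col25a1, Col2a1, Col4a4, Col6a5, Col9a1, Col9a3 and Lama1. Their mean intensities lay between 13.1 and 34.6, at or below the 40th percentile of 38.5 to 44.1 that the arrays gave, and Lama1 passed that percentile on 1 array.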

How the data were processed

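Hearts of 82 rats were read on Affymetrix rat expression arrays, 1 array per animal, so p-values rest on the spread between animals, pooled over the 14 groups. The deposited values are intensities on a linear scale, from 9.76 to 39497, one per probe set and array. Per the labels' protocols, total RNA was turned into biotinylated cRNA; the software and the normalization behind the deposited intensity values are not given in the sources used here. Of 31099 probe sets, 57 were controls and were left out. Of the rest, 20826 had a single gene symbol in the platform annotation, 436 had several and 9780 had none. That annotation can be old. The probe set with the highest mean stood for each gene, and genes above the 40th percentile of their array on at least 5 arrays were tested.

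Groups came from the labels. Values were taken as log2(intensity + 16) and fitted in limma 3.58.1 (R 4.3.3) with 1 mean per group over all 82 arrays (68 residual degrees of freedom), and p-values were adjusted by Benjamini-Hochberg over 11319 genes within each of 19 comparisons. The scripts were tested on simulated data. The matrix genes and the other gene lists were chosen with earlier results of these data known. Full values were given for up to 6 rises and 6 falls with the largest change per comparison, further called genes for values side by side, and up to 3 genes per other list and comparison, all among genes past the threshold; other genes named were chosen after their values were seen. Alternatives changed the constant, the filter, the normalization between arrays, the choice of probe set and the arrays or groups fitted, and 2 of them (leaving out the 10 arrays nearer another group, and array weights) were added after seeing the data.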

Additional observations from a re-analysis of the deposited data

Results flagged for a closer look

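Dixon's test for a single animal far from the rest of its group was applied to 18 matrix genes in 14 groups each. Of the 252 groups, 34 (13.5%) passed its 95% limit. The rate of about 1 in 20 that chance gives holds for normal values and independent groups. Linear intensities were used here and the 18 genes share the same arrays, so the share cannot be set against that rate. Intensities that stood apart clustered in a few animals. Vinblastine 3 mg/kg replicate 1 at 6 h stood apart for 9 genes, with intensities of 4065 (Timp1), 2505 (Tinagl1), 1363 (Postn), 1049 (Lama5), 5682 (Lamc1) and 144 (Col12a1) above the other hearts of its group and 1102 (Col15a1), 1335 (Col1a1) and 6203 (Col3a1) below them. Colchicine 2 mg/kg replicate 1 at 24 h stood apart for 5 genes, with 3445 (Col15a1), 1987 (Lum), 852 (Fbn1) and 105 (Col6a6) above its group and 361 (Tinagl1) below it. Both animals are among the 10 arrays nearer another group.

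Adamts1 and Tinagl1 were high in single animals of lower-dose groups. The intensities were 1394 (Adamts1) and 1071 (Tinagl1) in vinblastine 0.5 mg/kg replicate 6 at 6 h, 1295 (Adamts1), 912 (Tinagl1) and 360.4 (Timp1) in vinblastine 0.5 mg/kg replicate 5 at 24 h, where Timp1 stood apart too, and 1871 (Adamts1) and 845 (Tinagl1) in colchicine 0.2 mg/kg replicate 6 at 24 h. Low readings came from colchicine 2 mg/kg replicate 4 at 6 h, with 188 (Adamts1) and 294 (Tinagl1). These 4 animals are also among the 10.

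Single readings stood apart in other animals. They were 12452 (Col3a1) in vincristine 0.1 mg/kg replicate 5 at 24 h, 418 (Lama5) in vincristine 0.1 mg/kg replicate 1 at 6 h, 862 (Timp1) in colchicine 2 mg/kg replicate 2 at 6 h and 715 (Col5a3) in vinblastine 0.5 mg/kg replicate 2 at 6 h. Colchicine 0.2 mg/kg replicate 2 at 24 h gave 237 (Col6a6) and 1518 (Lama4). Among saline hearts, readings stood apart at 24 h in replicate 3, with 1171 (Col14a1), 1635 (Lama4) and 316 (Postn), and in replicate 4, with 358 (Tinagl1), and at 6 h in replicate 1, with 611 (Col5a3).

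In the limma fit, 24 changes against saline differed between 24 h and 6 h. The differences in log2 change, 24 h minus 6 h, after colchicine 2 mg/kg were 1.60 (Timp1), 0.82 (Lama5), 0.37 (Col18a1) and 0.30 (Col27a1) on the positive side. On the negative side the collagens gave -1.45 (Col15a1), -0.96 (Col14a1), -0.92 (Col6a6), -0.82 (Col6a3), -0.78 (Col3a1), -0.61 (Col1a1), -0.55 (Col5a3), -0.49 (Col1a2) and -0.37 (Col4a5), and the other genes gave -1.48 (Lum), -0.58 (Fbn1), -0.44 (Lamb2) and -0.35 (Lama2). After vincristine 1 mg/kg they were 0.28 (Col16a1) on the positive side and -1.04 (Col15a1), -0.98 (Col6a6), -0.91 (Lum), -0.79 (Col14a1), -0.60 (Fbn1) and -0.53 (Col3a1) on the negative side.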

How the results depend on the processing

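Of the 106 calls of single genes, 0 reversed under any of 10 alternatives, and the calls kept ran from 82 (only the compared groups fitted) to 106 (a constant of 1). The counts after colchicine 2 mg/kg at 24 h (32 to 38) and vincristine 1 mg/kg at 24 h (16 to 26) stayed within 1.5 times the reported ones. With only the compared groups fitted, the count was 3 for vinblastine 3 mg/kg and 4 for vincristine 1 mg/kg at 6 h, 8 for vinblastine at 24 h, 0 for the higher against the lower vinblastine dose, 7 for the colchicine doses, and 2 (vinblastine) and 10 (colchicine) for the difference between times. Without the 10 arrays the counts were 5, 5 and 9 for vinblastine, vincristine and colchicine at 6 h, 9 for vinblastine at 24 h, 4 and 6 for the vincristine and colchicine doses and 3 for the vinblastine difference between times. Array weights gave 6 for vinblastine and 10 for colchicine at 6 h, 11 for vinblastine at 24 h, 12 for the colchicine doses and 2 for the vinblastine difference between times. Without the 6 arrays with names ending in _2, the counts were 2 for vinblastine at 6 h and 0 for the vinblastine doses. The mean of all probe sets gave 4 for colchicine at 6 h, and quantile normalization gave 1 for the vinblastine difference between times. The cause was not tested. Leaving out each animal in turn gave 4 to 15 for vinblastine, 0 to 3 for vincristine and 2 to 5 for colchicine at 6 h, 2 to 5, 15 to 18 and 29 to 37 at 24 h, 2 to 8, 0 to 3 and 3 to 5 between doses, and 0 to 1, 5 to 9 and 7 to 22 between times. It gave 0 throughout for the lower doses and for saline. The replicate numbers do not pair the animals (mean correlation of deviations 0.0228 over 521 pairs, 156 of them over 0.1), and with a replicate block the counts were 10 for vinblastine at 6 h and 34 for colchicine at 24 h. Signal close to background limits the genes under the filter.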

Other observations

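At 6 h, where few collagen genes passed the test, several genes around the matrix rose at all 3 higher doses. Ccn1 and Ccn2 encode secreted proteins that bind integrins. The log2 change of Ccn1 was 2.07 ± 0.71 for vinblastine (adjusted p = 0.0252), 2.70 ± 0.71 for vincristine (adjusted p = 0.0193) and 3.12 ± 0.71 for colchicine (adjusted p = 0.00178), and that of Ccn2 was 2.16 ± 0.40 for vinblastine (adjusted p = 7.08e-05), 1.85 ± 0.40 for vincristine (adjusted p = 0.00907) and 2.00 ± 0.40 for colchicine (adjusted p = 0.000485). Plat, a plasminogen activator, changed by 1.29 ± 0.23 for vinblastine (adjusted p = 3.18e-05), 0.92 ± 0.23 for vincristine (adjusted p = 0.0143) and 1.01 ± 0.23 for colchicine (adjusted p = 0.00167), and Timp3, a matrix-bound protease inhibitor, by 1.05 ± 0.16 for vinblastine (adjusted p = 4.47e-06), 0.93 ± 0.16 for vincristine (adjusted p = 0.00263) and 1.01 ± 0.16 for colchicine (adjusted p = 4.99e-05). The 3 compounds share their saline hearts, and their doses differ.

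Over the lists, 6 genes of collagen making rose and 1 fell after vinblastine at 6 h, 0 rose and 1 fell after vincristine and 1 rose and 2 fell after colchicine, of 19 tested. Among 21 proteases and inhibitors, 8 rose and 4 fell after vinblastine, 2 rose and 2 fell after vincristine, and 3 rose and 2 fell after colchicine. Of 21 receptors, 6 rose and 1 fell after vinblastine, 1 rose after vincristine, and 3 rose and 2 fell after colchicine. Of 18 genes of TGF-beta signalling, 5 rose and 1 fell after vinblastine, 2 rose after vincristine, and 3 rose and 2 fell after colchicine. The 28 other matricellular and elastic fibre genes gave 5 rises and 1 fall after vinblastine, 1 rise after vincristine and 1 fall after colchicine. Of all genes tested, 15.7% rose and 7.67% fell after vinblastine, 2.05% and 1.25% after vincristine and 4.89% and 4.37% after colchicine. With the 10 arrays left out, collagen making gave 5 rises and 0 falls after vinblastine, 3 rises and 1 fall after vincristine and 3 rises and 4 falls after colchicine in limma. Proteases and inhibitors then gave 7 rises and 3 falls, 4 and 5, and 7 and 5, and receptors 4 rises and 1 fall, 4 and 2, and 3 and 2, in the same order. TGF-beta signalling gave 5 rises and 2 falls, 3 and 1, and 4 and 2, and the other matricellular genes 2 rises and 1 fall, 1 and 2, and 1 and 3.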
